A study of Mus musculus with 19 samples.

Results

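The response to angiotensin II (Ang II) that was common to mice with and without IKKβ in smooth muscle cells was measured by bulk RNA-Seq in suprarenal abdominal aortas (SRAs) of 19 male mice, 10 Ang II-treated and 9 saline-infused. Expression was given as normalized counts, the reads of a gene divided by the size factor of the mouse. Of the 20408 genes in the table, 14845 reached 10 normalized counts in 4 mice or more and were tested for an effect of the treatment over all 19 mice with genotype as a covariate, on the log2(normalized count + 1) scale. The common response consists of 1317 genes. They passed this test (limma, a fold change above 1.2 with an adjusted p under 0.1) and also moved in its direction by more than 1.2-fold in each genotype. In the gene lists, genes that passed the test but stayed under 1.2-fold in a genotype, or did not pass it, are named as well.

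All mice were ApoE-/- on a C57BL/6J background, carried SMA-CreERT2 and received tamoxifen at 8 weeks of age. SMA-CreERT2 is a Cre recombinase that tamoxifen activates and that the Acta2 promoter expresses in smooth muscle cells. IKKβ-/- mice (IKKb knockout in the labels) carried in addition Ikbkb alleles flanked by loxP sites, and their IKKβ+/+ littermates (Wild-type in the labels) had intact Ikbkb. Subcutaneous osmotic pumps delivered saline or Ang II for 24 h, at 500 to 1000 ng/min/kg according to the labels, of which the methods for these mice name the upper dose alone. There were 5 IKKβ+/+ and 5 IKKβ-/- mice with Ang II and 5 IKKβ+/+ and 4 IKKβ-/- mice with saline. The whole wall was sequenced, so cells in which Cre is not expressed contributed intact Ikbkb to every library. All mice underwent the same pump surgery under isoflurane with carprofen.

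Ang II is the effector peptide of the renin-angiotensin system. Through the AT1 receptor on smooth muscle cells it constricts arteries, raises protein synthesis and remodels the matrix of the wall, and its infusion into ApoE-deficient mice is a common model of abdominal aortic aneurysm, which forms in the suprarenal segment. IKKβ is the kinase that releases NF-κB from its inhibitors.

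The libraries held 11382573 to 19906694 reads on genes. Reads of mitochondrial genes made up 5.99% to 38.7% of them, with medians of 8.69% and 12.96% in saline-infused and Ang II-treated IKKβ+/+ mice and 17.7% and 24.2% in the IKKβ-/- groups, and this share exceeded 30% in 1 saline-infused and 1 Ang II-treated IKKβ-/- mouse. Ikbkb ranged from 594 to 791 normalized counts in saline-infused and from 685 to 779 in Ang II-treated IKKβ+/+ mice, and from 439 to 586 and 430.2 to 672 in the IKKβ-/- groups. It showed no change that passed the test with Ang II (log2 fold change 0.10 ± 0.08 (SE), limma adjusted p = 0.503). The treated IKKβ+/+ mouse X2356 stood apart in markers of neurons and chromaffin cells, with a summed level of 9787 normalized counts against 146 to 1315 in the other mice. The mouse numbers of each group run in a separate block, and a batch cannot therefore be told apart from the groups. The level of each transcript is that of the whole wall, in which fewer cells of a type and less RNA per cell cannot be told apart.

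Over both genotypes, 1766 of the 14845 genes (11.9%) passed the test, 770 of them higher (5.19%) and 996 lower (6.71%) after Ang II. Both genotypes moved together by more than 1.2-fold for 522 of the higher genes (3.52% of the genes tested) and 795 of the lower genes (5.36%), 1317 in all (8.87%). Another 447 genes had the same sign but stayed under 1.2-fold in 1 genotype, 172 of them in IKKβ+/+ and 275 in IKKβ-/- mice. Opposite signs were seen for 2 genes, Lrrc27 and Cltb, whose changes in IKKβ-/- mice were -0.09 and -0.00 on the log2 scale. Because the test averages both genotypes, a gene that passes it tends to have the same sign in both, so the agreement in sign is partly set by the choice of genes. Tested in 1 genotype at a time, 199 of the 1766 genes passed in both, 651 in IKKβ+/+ mice alone, 317 in IKKβ-/- mice alone and 599 in neither. The median size of the change of the called genes was 0.59 in IKKβ+/+ and 0.52 in IKKβ-/- mice on the log2 scale, and the change was larger in IKKβ+/+ mice for 1000 of them and in IKKβ-/- mice for 764. No gene passed the limma test of the difference between the genotypes in the effect of Ang II (smallest adjusted p = 0.215), 1654 genes (11.1%) had an unadjusted p under 0.05 for it, and edgeR and DESeq2 called 3 and 279. Without mouse X2356 limma called 79 genes for this difference, and without X2406, a saline-infused IKKβ-/- mouse, 19, and 863 genes were higher and 1074 lower over both genotypes without X2356. Within the 1317 genes, 84 had an unadjusted p under 0.05 for this difference, and the rule that chose them left out genes with opposite changes.

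**Figure D1:**
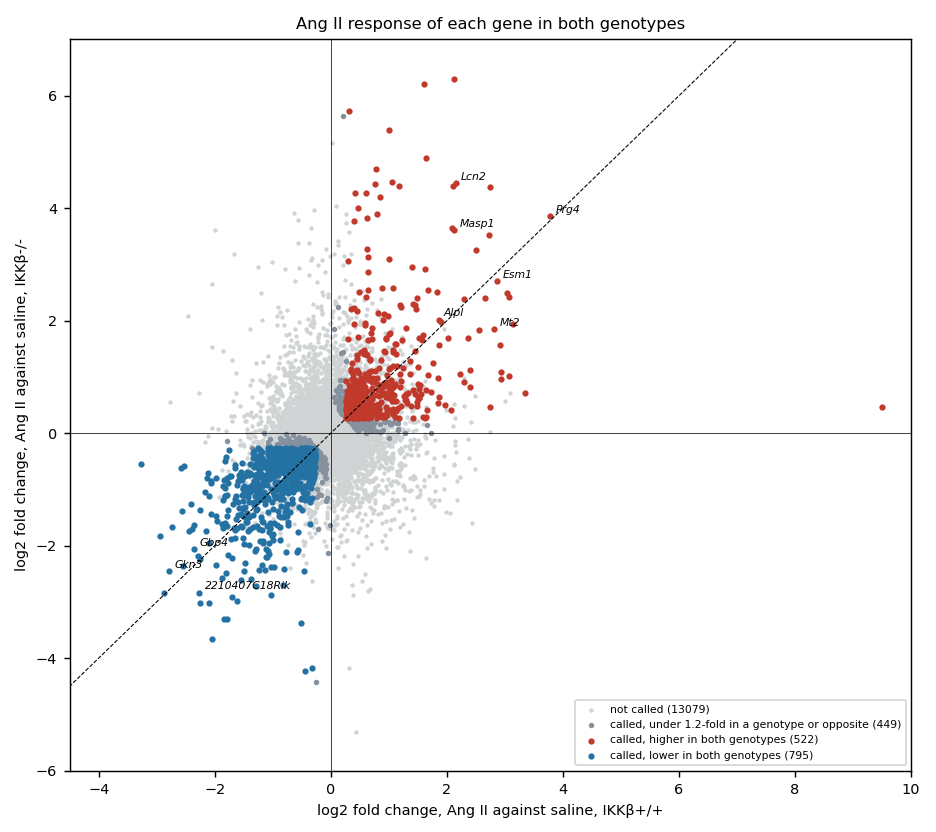
The log2 fold change with Ang II in IKKβ-/- mice (vertical axis) is plotted against that in IKKβ+/+ mice (horizontal axis), 1 point per gene tested, with the 522 higher and 795 lower genes of the common response in colour. The coloured genes lie in the upper right and lower left quadrants because both changes had to exceed 1.2-fold in the same direction.

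The 2 treatments had no overlap within either genotype for 128 genes (0.862% of the genes tested), 47 higher and 81 lower. For 59 of them (0.397%) the 10 Ang II-treated mice were separated from all 9 saline-infused mice, 17 above and 42 below. More than 2-fold changes in both genotypes were found for 218 of the 1317 genes, 66 higher and 152 lower. Of the genes with no overlap, 112 also reached a mean of 50 normalized counts in a group, and genes from the 12 of each direction whose smaller within-genotype change was largest are described first.

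Among them the largest rise was that of Prg4 (chr1:150449412-150466165, GRCm38), which encodes lubricin, a secreted lubricating proteoglycan. Prg4 had 24.7, 32.6, 35.9, 140.3 and 150.0 normalized counts in saline-infused and 381, 424, 566, 1081 and 3264 in Ang II-treated IKKβ+/+ mice, and 22.5, 23.2, 39 and 64.9 in saline-infused and 269.9, 458, 555, 557 and 862 in Ang II-treated IKKβ-/- mice. All 10 Ang II-treated mice lay above all saline-infused mice, and the changes were 3.77 in IKKβ+/+ and 3.86 in IKKβ-/- mice on the log2 scale (log2 fold change 3.81 ± 0.40 (SE), limma adjusted p = 1.67e-05). Esm1 (chr13:113209659-113218098), the endothelial proteoglycan endocan, had 61.9, 120.3, 141, 147 and 229 normalized counts in saline-infused and 406, 688, 991, 1102 and 2500.4 in Ang II-treated IKKβ+/+ mice, and 42.8, 84.3, 88.3 and 229.7 in saline-infused and 404, 497, 585, 776 and 902 in Ang II-treated IKKβ-/- mice. The treatments were separated again over all 19 mice (log2 fold change 2.79 ± 0.31 (SE), limma adjusted p = 4.15e-05). Lcn2 (chr2:32384633-32388252), the iron-siderophore binding protein lipocalin 2, had 7.15, 7.93, 7.97, 7.99 and 14.2 normalized counts in saline-infused and 21.4, 35.4, 41.6, 62.6 and 69.1 in Ang II-treated IKKβ+/+ mice, and 0, 0, 2.9 and 4.83 in saline-infused and 17.5, 36, 47.5, 72.1 and 97.9 in Ang II-treated IKKβ-/- mice. Its treated mice were all above the others (log2 fold change 3.23 ± 0.45 (SE), limma adjusted p = 0.000275), but with 0 to 4.83 normalized counts in saline-infused IKKβ-/- mice the size of its fold change depends on the pseudocount.

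Mt2 (chr8:94172664-94173568), a metal-binding metallothionein, had 91.8, 117, 216, 250.3 and 261 normalized counts in saline-infused and 442, 848, 1423, 1755 and 2917 in Ang II-treated IKKβ+/+ mice, and 119, 295, 336 and 346 in saline-infused and 356, 668, 1186, 1262 and 1745 in Ang II-treated IKKβ-/- mice. No treated mouse fell into the range of the saline-infused mice (log2 fold change 2.36 ± 0.36 (SE), limma adjusted p = 0.000518). Alpl (chr4:137741733-137796384), tissue-nonspecific alkaline phosphatase, had 152, 186, 222, 239.7 and 241 normalized counts in saline-infused and 388, 516, 826, 871 and 1598 in Ang II-treated IKKβ+/+ mice, and 72.1, 198, 235 and 309.8 in saline-infused and 465, 729, 812, 826 and 922 in Ang II-treated IKKβ-/- mice. All treated mice were above all saline-infused mice (log2 fold change 1.93 ± 0.25 (SE), limma adjusted p = 0.000177), with a difference between the genotypes of 0.16 (95% interval -0.90 to 1.23).

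Asns (chr6:7675169-7693254), asparagine synthetase, had 50.2, 52.2, 59.5, 86.4 and 98.5 normalized counts in saline-infused and 112, 169, 185, 223 and 242 in Ang II-treated IKKβ+/+ mice, and 20.3, 25.2, 32.7 and 47.4 in saline-infused and 97.6, 123, 163, 172 and 237 in Ang II-treated IKKβ-/- mice. It was separated within each genotype, while the lowest treated IKKβ-/- mouse lay just below the highest saline-infused IKKβ+/+ mouse (log2 fold change 1.83 ± 0.22 (SE), limma adjusted p = 8.63e-05). Also among the 12 were Masp1, a serine protease of the lectin pathway of complement (log2 fold change 2.82 ± 0.46 (SE), limma adjusted p = 0.000818), Lrp8, an apolipoprotein E receptor (log2 fold change 1.44), Ppa1, inorganic pyrophosphatase (1.26), the uncharacterised gene AI506816 (1.07) and Psat1, an enzyme of serine synthesis (1.0). Average rises larger than that of Masp1, of 5.24 for Olfr629, 4.08 for Cyp2e1 and 3.18 for Cxcl13, had overlapping groups.

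Mybpc2 (chr7:44501699-44524656), a myosin-binding protein known from fast skeletal muscle, shared the smallest adjusted p of all genes tested with 2210407C18Rik. Mybpc2 had 115, 119, 155, 165 and 166 normalized counts in saline-infused and 35.8, 40.1, 40.6, 55.5 and 57.8 in Ang II-treated IKKβ+/+ mice, and 112, 116, 121 and 121 in saline-infused and 25.4, 36, 38.9, 50.8 and 57.8 in Ang II-treated IKKβ-/- mice. Treated and saline-infused mice were separated over all 19 mice (log2 fold change -1.58 ± 0.15 (SE), limma adjusted p = 5.95e-06). The uncharacterised gene 2210407C18Rik (chr11:58608204-58616075) had 182, 255, 278, 419 and 441 normalized counts in saline-infused and 44.8, 54.8, 58.6, 72.8 and 81.2 in Ang II-treated IKKβ+/+ mice, and 302, 329, 395 and 527 in saline-infused and 33.4, 35.1, 37, 69 and 126 in Ang II-treated IKKβ-/- mice. It was separated over all 19 mice as well (log2 fold change -2.54 ± 0.24 (SE), limma adjusted p = 5.95e-06). Olfr224 (chr11:58565856-58570553), an olfactory receptor gene on the same stretch of chromosome 11, fell beside it (log2 fold change -2.61 ± 0.34 (SE), limma adjusted p = 0.000177), and whether the reads of these neighbours belong to 1 transcript was not tested.

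Gkn3 (chr6:87383256-87388935), a secreted gastrokine, had 189.7, 245, 277, 345 and 457 normalized counts in saline-infused and 11.5, 32.1, 39.8, 81.1 and 93.2 in Ang II-treated IKKβ+/+ mice, and 118, 162, 209 and 378 in saline-infused and 14.1, 25.7, 28.6, 52.7 and 95.1 in Ang II-treated IKKβ-/- mice. The lowest saline-infused mouse was above the highest treated mouse (log2 fold change -2.63 ± 0.36 (SE), limma adjusted p = 0.000269). Sfrp2 (chr3:83766321-83774316), a secreted Wnt modulator of fibroblasts, had 3491, 3931, 4119.6, 4980.4 and 5256 normalized counts in saline-infused and 574, 1060.4, 1309, 1755 and 2146 in Ang II-treated IKKβ+/+ mice, and 2045, 2536, 3504 and 4414 in saline-infused and 755, 797, 1273, 1379 and 1399 in Ang II-treated IKKβ-/- mice. There was no overlap within either genotype, although the lowest saline-infused IKKβ-/- mouse was below the highest treated IKKβ+/+ mouse (log2 fold change -1.64 ± 0.21 (SE), limma adjusted p = 0.000163). Unc5d (chr8:28646717-29219636), a netrin receptor, had 62.6, 67, 70.1, 70.7 and 98.7 normalized counts in saline-infused and 2.14, 11.9, 17.2, 32.9 and 34.2 in Ang II-treated IKKβ+/+ mice, and 61.3, 78.2, 102 and 107 in saline-infused and 10.3, 12, 13.7, 19.3 and 45.2 in Ang II-treated IKKβ-/- mice. Treated and saline-infused mice were again separated (log2 fold change -2.25 ± 0.36 (SE), limma adjusted p = 0.000775).

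Vipr1 (chr9:121642716-121672954), a receptor of the vasodilator vasoactive intestinal peptide, had 232, 241, 247, 301 and 335 normalized counts in saline-infused and 53.5, 69.6, 76.5, 125 and 184 in Ang II-treated IKKβ+/+ mice, and 180.0, 295, 332 and 351 in saline-infused and 39.7, 70.7, 82.3, 126 and 174 in Ang II-treated IKKβ-/- mice. There was no overlap within either genotype (log2 fold change -1.60 ± 0.24 (SE), limma adjusted p = 0.000559), and the changes were -1.54 in IKKβ+/+ and -1.67 in IKKβ-/- mice. Kcnj2, the inward rectifier potassium channel Kir2.1 (log2 fold change -1.51), Synpo2l, an actin-associated protein of striated muscle (-1.49), and Lmntd1 (-1.73) were the next. The guanylate-binding proteins Gbp4 (-2.22) and Gbp5 (-1.78) completed the 12 falls and belong to the group described next. All 24 of these genes kept their call under each of the 32 alternative analyses. They were chosen for large changes without overlap in these same mice, which makes such stability likely from the start.

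**Figure D2:**
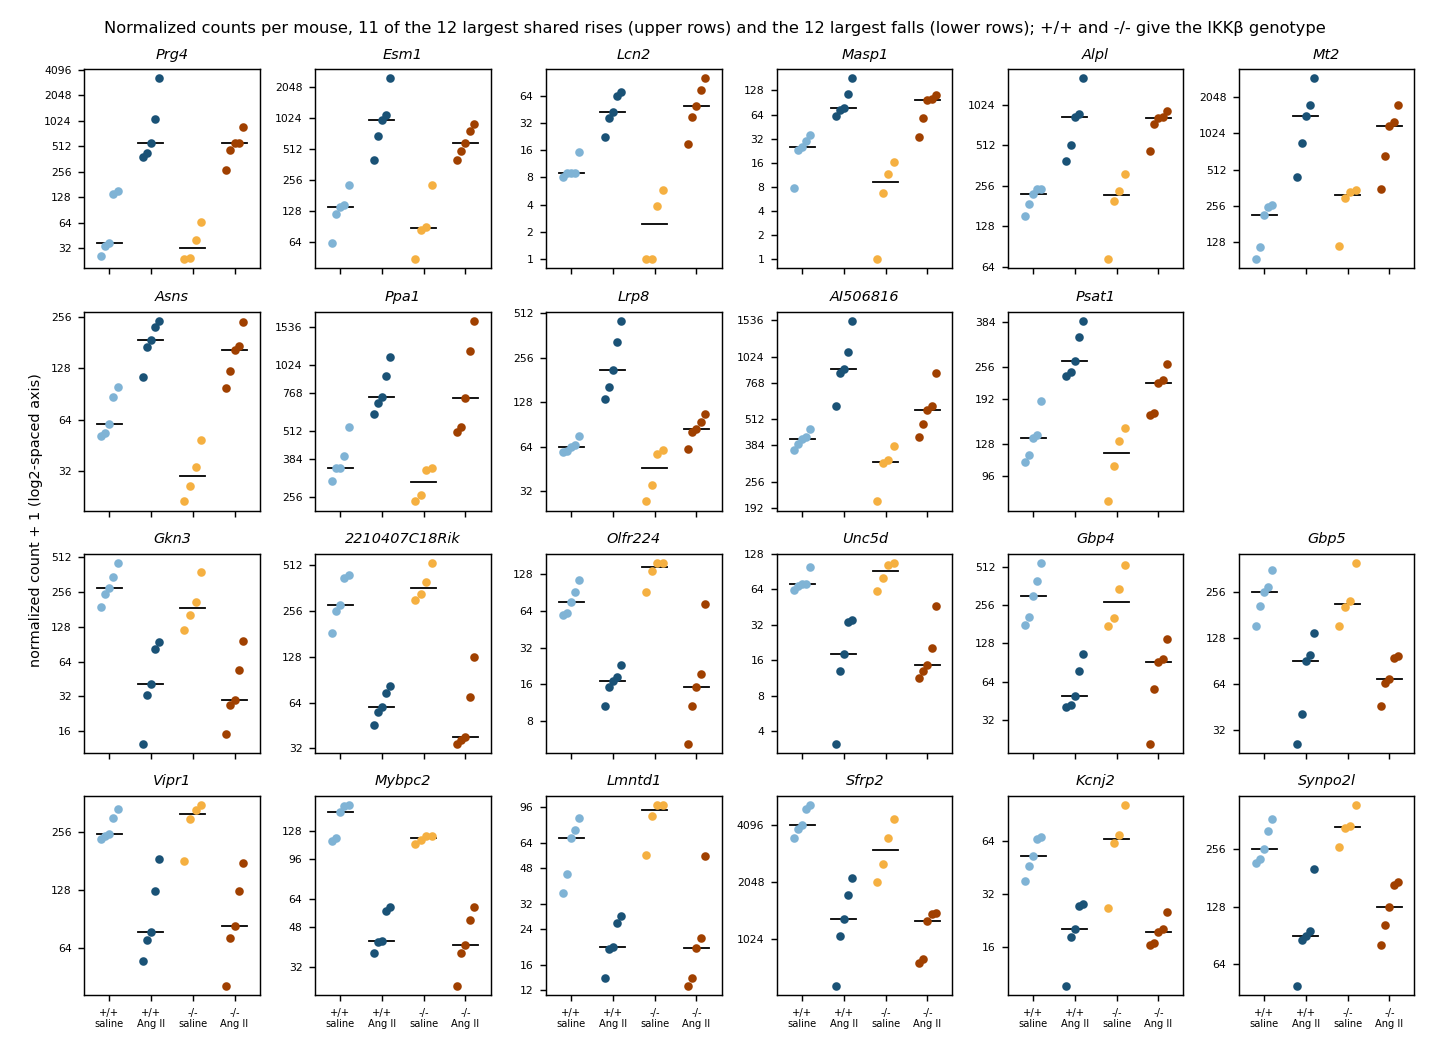
Normalized counts (log2-spaced axis, value + 1) of 11 of the 12 largest common rises and of the 12 largest common falls are shown by group, 1 point per mouse and a line at the median. Treated and saline-infused points do not overlap within either genotype in any panel because the genes were chosen for that.

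Lists of genes for processes of the vessel wall were then described by their counts and medians. For comparison, the median log2 fold change of all genes tested was 0.01, with 51.1% of them above 0 and 48.9% below. A value in parentheses after a gene is its log2 fold change over both genotypes.

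**Figure D3:**
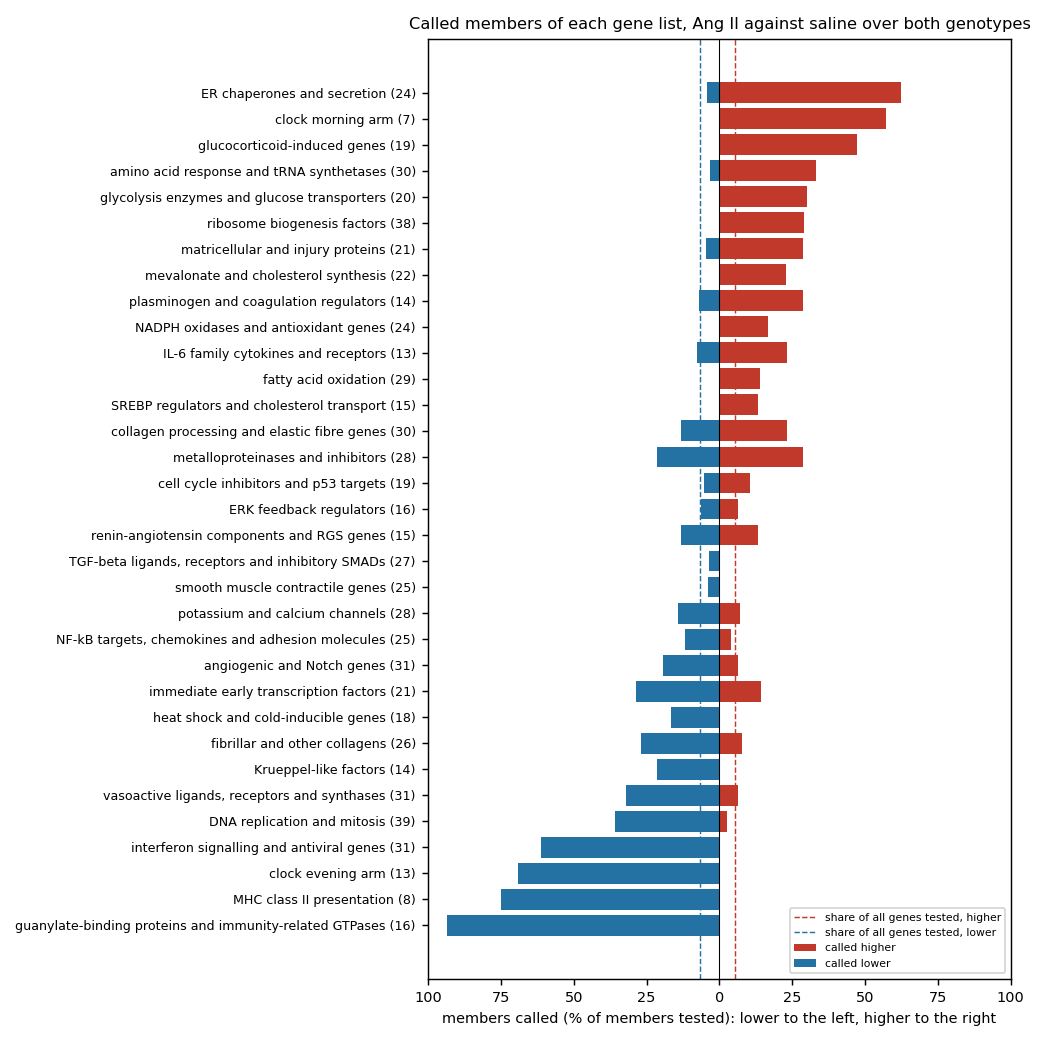
Bars give, for each list of genes, the percent of its tested members that passed the test with a higher or a lower level after Ang II, beside the percent over all genes tested. Guanylate-binding proteins and immunity-related GTPases had the largest share of lower genes (15 of 16) and the endoplasmic reticulum chaperones the largest share of higher genes (15 of 24) among the process lists.

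The interferon-induced GTPases fell almost as a whole. Guanylate-binding proteins (GBPs) and immunity-related GTPases are induced by interferon and act on membranes of intracellular pathogens. Of 16 tested members 15 passed the test, all lower, 14 of them by more than 1.2-fold in both genotypes, and the median log2 fold change was -1.21, with -1.54 in IKKβ+/+ and -0.96 in IKKβ-/- mice. Most of their promoters hold the core of the interferon-stimulated response element, the letters GAAA and GAAA with any 2 bases between them. Searched on both strands from 250 bases before to 50 bases after the RefSeq start site (GRCm38.p6), it was found in 9 of the 10 members with a promoter sequence and in 3.99% of all 27025 genes with such a sequence. The stretches around it are given for Gbp5 (chr3:142496739-142496808, strand +), Tgtp2 (chr11:49064243-49064312, strand -) and Gbp3 (chr3:142559969-142560038, strand +), with the matched bases in capitals; in Gbp5 and Gbp3 the match reads on the opposite strand.
Gbp5: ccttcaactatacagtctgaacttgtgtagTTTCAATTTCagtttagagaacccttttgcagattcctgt
Tgtp2: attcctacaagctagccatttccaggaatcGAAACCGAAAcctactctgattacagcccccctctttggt
Gbp3: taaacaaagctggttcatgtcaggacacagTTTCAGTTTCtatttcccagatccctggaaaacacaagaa

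Gbp5 had 154, 206, 257, 278 and 359 normalized counts in saline-infused and 24.8, 39.6, 89.5, 98.2 and 138 in Ang II-treated IKKβ+/+ mice, and 152, 205, 222 and 401 in saline-infused and 44.4, 64.3, 68.4, 93.1 and 96.1 in Ang II-treated IKKβ-/- mice. The highest treated mouse was below the lowest saline-infused mouse (log2 fold change -1.78 ± 0.27 (SE), limma adjusted p = 0.000559). Gbp4 had 178, 204, 299.7, 393 and 551 normalized counts in saline-infused and 39.2, 40.8, 48.2, 76.8 and 105 in Ang II-treated IKKβ+/+ mice, and 175, 201.0, 342 and 533 in saline-infused and 19.8, 55.4, 89.8, 96.4 and 136 in Ang II-treated IKKβ-/- mice. Gbp4 was separated in the same way (log2 fold change -2.22 ± 0.32 (SE), limma adjusted p = 0.000328). Tgtp2 ranged from 46.2 to 111 normalized counts in saline-infused and from 11.5 to 25.8 in Ang II-treated IKKβ+/+ mice, and from 34.8 to 98.4 and 7.94 to 34.9 in the IKKβ-/- groups (-1.76). Igtp ranged from 164 to 359 normalized counts in saline-infused and from 43.9 to 112 in Ang II-treated IKKβ+/+ mice, and from 143 to 308 and 73.3 to 203 in the IKKβ-/- groups (-1.24). Gbp3 was also lower (-1.30), and these 3 genes overlapped between the treatments in IKKβ-/- mice alone. The GBP and Tgtp genes are families of near-identical copies, so the counting of reads could shift values between members.

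Other interferon-induced genes fell as well. Of 31 tested genes of interferon signalling and antiviral defence 19 passed the test, all lower, 15 of them in both genotypes, with a median of -0.61, with -0.92 in IKKβ+/+ and -0.30 in IKKβ-/- mice. They included the transcription factors Irf1 (-0.61), Irf7 (-0.99), Irf9 (-0.30) and Ciita (-1.49), the peptide transporter Tap1 (-0.63), the immunoproteasome subunits Psmb8 (-0.55) and Psmb9 (-0.95) and the chemokine Cxcl10 (-2.04). The same core was present in the promoters of 12 of the 23 genes of this list that had a sequence. Among the 14 of these 23 that passed the test as lower, 6 held it. Genes of MHC class II, which present peptides to CD4+ T cells and need Ciita for their transcription, fell in 6 of 8 cases, 5 of them in both genotypes (median -0.93). H2-Aa had 546, 662, 740.1, 761 and 981 normalized counts in saline-infused and 84.6, 239, 287, 327 and 339.9 in Ang II-treated IKKβ+/+ mice, and 509.6, 535, 591 and 715 in saline-infused and 133, 141, 319.5, 409 and 479 in Ang II-treated IKKβ-/- mice. All treated mice were below all saline-infused mice (log2 fold change -1.42 ± 0.26 (SE), limma adjusted p = 0.00227). Macrophages carry much of the class II of the wall. Of 14 macrophage markers Lyve1 passed the test as higher and Trem2 as lower. These 2 of 14 are 14.3%, near the 11.9% of all genes tested, and the list's median was -0.09. The summed level of the macrophage markers ranged from 12215 to 15709 and from 10659.7 to 16827 in saline-infused and Ang II-treated IKKβ+/+ mice and from 8644 to 11674 and 6648 to 21415 in the IKKβ-/- groups. Their part in the fall of class II was not tested.

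Chaperones of the endoplasmic reticulum (ER) had the largest share of rises among the process lists. They fold proteins that enter the secretory path, and ATF6 and XBP1 induce them through the ER stress element, the letters CCAAT and CCACG with any 9 bases between them. Of 24 tested members 15 rose, 13 of them by more than 1.2-fold in both genotypes. The 1 that fell, Dnajc10 (-0.29), stayed under 1.2-fold in 1 genotype. The list's median was 0.39, with 0.33 in IKKβ+/+ and 0.53 in IKKβ-/- mice. The element lay in 8 of the 21 promoters of this list that had a sequence and in 0.137% of all promoters, searched on both strands of the window described above. It is shown in capitals for Derl3 (chr10:75893212-75893290, strand +), Hspa5 (chr2:34771995-34772073, strand +) and Creld2 (chr15:88819490-88819568, strand +), on the opposite strand in Derl3 and Creld2, and its last letters can overlap an E-box, CACGTG.
Derl3: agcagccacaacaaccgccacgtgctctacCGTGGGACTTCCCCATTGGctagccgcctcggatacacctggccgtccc
Hspa5: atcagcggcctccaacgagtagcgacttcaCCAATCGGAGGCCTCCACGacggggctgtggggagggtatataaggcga
Creld2: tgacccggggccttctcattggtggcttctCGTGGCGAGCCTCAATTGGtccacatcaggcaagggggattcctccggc

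Hspa5, the chaperone BiP, had 9382, 10546, 11599.7, 19737 and 26026 normalized counts in saline-infused and 17902, 21599.9, 21732, 22208 and 25621 in Ang II-treated IKKβ+/+ mice, and 6369, 9674, 10368 and 10878 in saline-infused and 15569, 16558, 18360.0, 18797 and 22525 in Ang II-treated IKKβ-/- mice. All treated IKKβ-/- mice were above the saline-infused IKKβ-/- mice, and in IKKβ+/+ mice the groups overlapped through 2 saline-infused mice (log2 fold change 0.79 ± 0.17 (SE), limma adjusted p = 0.00682). Sdf2l1, a partner of BiP, had 126, 127, 128, 198 and 353 normalized counts in saline-infused and 250.1, 279, 298, 399 and 401 in Ang II-treated IKKβ+/+ mice, and 73.9, 89.5, 101 and 105 in saline-infused and 295, 311, 337, 377 and 622 in Ang II-treated IKKβ-/- mice. Its rise was 0.90 in IKKβ+/+ and 2.02 in IKKβ-/- mice on the log2 scale (log2 fold change 1.43 ± 0.22 (SE), limma adjusted p = 0.000634). Creld2 ranged from 389 to 1020.2 normalized counts in saline-infused and from 636 to 913 in Ang II-treated IKKβ+/+ mice, and from 335 to 417 and 715 to 990.0 in the IKKβ-/- groups (0.77). Derl3, which takes part in the removal of misfolded proteins, was near 0 in saline-infused mice, with at most 4.35 normalized counts, and had 2.98 to 31.5 and 7.94 to 45.4 normalized counts in treated IKKβ+/+ and IKKβ-/- mice (limma adjusted p = 0.00104). Pdia4 (0.65), Hyou1 (0.69), Manf (0.64), Calr (0.57) and Xbp1 (0.52) rose as well. With a fold change above 1.5 as the threshold 8 of the 15 remained.

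Genes of the amino acid response and of ribosome synthesis were also among the rises. Of 30 tested genes of the amino acid response, which ATF4 induces when amino acids are scarce, and of tRNA synthetases, 10 rose, 6 of them in both genotypes, and 1, the lipoprotein receptor Vldlr, fell (-0.70), with a median of 0.28, with 0.40 in IKKβ+/+ and 0.18 in IKKβ-/- mice. Mthfd2, a mitochondrial enzyme of the folate cycle, ranged from 162 to 399 normalized counts in saline-infused and from 529.8 to 1005 in Ang II-treated IKKβ+/+ mice, and from 146 to 308 and 287 to 578 in the IKKβ-/- groups (log2 fold change 1.22 ± 0.19 (SE), limma adjusted p = 0.000734). Shmt2 (0.31), Aldh18a1 (0.42) and the tRNA synthetases Gars (0.37), Iars (0.37), Tars (0.30) and Yars (0.36) were also higher. The core of the amino acid response element, TGATGNAA with N for any base, was found in 10 of the 24 promoters of the list and in 4.51% of all promoters. It is shown for Asns (chr6:7693195-7693262, strand -) and, on the opposite strand, for Chac1 (chr2:119351019-119351086, strand +), a glutathione-degrading enzyme whose groups overlapped (log2 fold change 1.15 ± 0.35 (SE), limma adjusted p = 0.0461).
Asns: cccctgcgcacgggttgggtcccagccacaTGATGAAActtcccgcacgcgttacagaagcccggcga
Chac1: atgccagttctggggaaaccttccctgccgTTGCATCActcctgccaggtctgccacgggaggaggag

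Factors of ribosome biogenesis, which build the ribosomal subunits in the nucleolus, rose in 11 of 38 cases, 8 of them in both genotypes, with a median of 0.29, with 0.40 in IKKβ+/+ and 0.19 in IKKβ-/- mice. They included Nop16 (0.38), Wdr12 (0.39), Noc3l (0.40), Rrp9 (0.44), Bop1 (0.68) and Heatr1 (0.42). Without mouse X2350, X2358 or X2378, all IKKβ+/+, the count was 7, and a threshold of 1.5-fold left 1. Myc, a transcription factor that drives this group, was called higher (log2 fold change 0.99 ± 0.36 (SE), limma adjusted p = 0.0972) but lost its call under 16 of 32 alternatives.

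Genes of the circadian clock differed between the treatments in opposite ways. The clock runs in every cell of the wall, with Arntl, Clock and Npas2 forming its activating arm and the Per, Cry, Nr1d and PAR bZIP genes its E-box driven targets. Of 13 tested targets 9 were lower, all in both genotypes, with a median of -0.95, with -0.52 in IKKβ+/+ and -1.43 in IKKβ-/- mice, and of 7 genes of the activating arm and its like-phased partners 4 were higher, 3 of them in both genotypes, with a median of 0.38. Arntl, known as Bmal1, had 72.2, 165, 537, 786 and 921 normalized counts in saline-infused and 479, 609, 723, 742 and 995 in Ang II-treated IKKβ+/+ mice, and 12.6, 51.5, 51.6 and 109 in saline-infused and 255, 379, 427, 441 and 453 in Ang II-treated IKKβ-/- mice. The groups were apart in IKKβ-/- mice and overlapped in IKKβ+/+ mice, whose saline-infused animals ranged from 72.2 to 921 (log2 fold change 1.99 ± 0.46 (SE), limma adjusted p = 0.0116). Hlf, a PAR bZIP factor, had 116, 171, 317, 595 and 814 normalized counts in saline-infused and 106, 119, 131, 138 and 153 in Ang II-treated IKKβ+/+ mice, and 712, 976, 1149 and 1483 in saline-infused and 96.1, 108, 178, 222 and 237 in Ang II-treated IKKβ-/- mice. Hlf followed the opposite course, again with no overlap in IKKβ-/- mice alone (log2 fold change -1.96 ± 0.33 (SE), limma adjusted p = 0.00104).

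Dbp had 71.5, 164, 923, 2613 and 2806 normalized counts in saline-infused and 134, 288, 291, 346 and 393 in Ang II-treated IKKβ+/+ mice, and 3060.4, 3705, 3813 and 5597 in saline-infused and 441, 609, 823, 848 and 1132 in Ang II-treated IKKβ-/- mice. Dbp differed widely among the saline-infused IKKβ+/+ mice, from 71.5 to 2806, and the treated IKKβ-/- mice were all below the saline-infused IKKβ-/- mice (log2 fold change -1.75 ± 0.53 (SE), limma adjusted p = 0.0464). The mean log2 level of the 13 targets, centred on the average over all mice, ranged from -1.25 to 0.90 in saline-infused and from -1.01 to -0.46 in treated IKKβ+/+ mice, and from 1.0 to 1.53 and from -0.69 to 0.18 in the IKKβ-/- groups. The count of 9 fell to 4 with a white adipocyte score as a covariate and to 5 without the 2 mice of high mitochondrial share. The E-box CACGTG was found in 5 of the 11 promoters of these targets that had a sequence, and in 3 of the 8 among them that passed the test. It lay in 8.09% of all promoters and in 11.4% of those of the genes tested. It is shown in capitals for Bhlhe41 (chr6:145865538-145865603, strand -, log2 fold change -1.27) and Tef (chr15:81802516-81802581, strand +, -1.04).
Bhlhe41: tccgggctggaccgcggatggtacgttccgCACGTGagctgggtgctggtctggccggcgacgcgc
Tef: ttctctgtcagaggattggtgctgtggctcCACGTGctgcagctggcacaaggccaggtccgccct

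Several genes that glucocorticoids induce rose. Of 19 tested members 9 passed the test, all higher and all in both genotypes, with a median of 0.66, with 0.96 in IKKβ+/+ and 0.33 in IKKβ-/- mice. Beside Lcn2 and Mt2 these were Mt1, which had 309, 321, 382, 414 and 529.8 normalized counts in saline-infused and 434, 839, 1402, 1595 and 1875 in Ang II-treated IKKβ+/+ mice, and 359, 639, 661 and 693 in saline-infused and 618, 804, 1146, 1296 and 1641 in Ang II-treated IKKβ-/- mice. The Mt1 groups overlapped slightly in both genotypes (log2 fold change 1.2 ± 0.24 (SE), limma adjusted p = 0.00449). Fkbp5, a co-chaperone of the glucocorticoid receptor (0.95), Pdk4, an inhibitor of pyruvate oxidation (0.95), Cdkn1a, the cell cycle inhibitor p21 (0.74), Ddit4, an inhibitor of mTORC1 (0.66), Map3k6 (0.57) and Lyve1 (0.76) were the others.

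Immediate early genes, which are transcribed within minutes of a stimulus, moved in both directions. Of 21 tested members 6 were lower and 3 higher, with a median of -0.39, with 0.39 in IKKβ+/+ and -1.20 in IKKβ-/- mice. Fos had 515, 537, 2256, 3458 and 8147 normalized counts in saline-infused and 417, 425, 619, 635 and 676 in Ang II-treated IKKβ+/+ mice, and 1148, 2407, 2529.6 and 5719 in saline-infused and 228, 335, 336, 396 and 399.8 in Ang II-treated IKKβ-/- mice. In IKKβ-/- mice every treated animal was below every saline-infused animal, and in IKKβ+/+ mice the saline-infused animals ranged too widely for that (log2 fold change -2.28 ± 0.42 (SE), limma adjusted p = 0.00244). Egr1 (-1.42), Egr3 (-1.16), Jun (-1.40), Ier2 (-0.68) and Jund (-0.62) were also lower, while Maff (0.98), Nr4a2 (0.86) and Myc (0.99) were higher. Among the 16 feedback regulators of ERK signalling Spry4 was higher (0.33) and Dusp16 lower (-0.59), neither by more than 1.2-fold in both genotypes. These 2 of 16 are 12.5%, near the 11.9% of all genes tested. Of 14 Krüppel-like factors Klf2, which laminar flow induces in endothelium (-0.66), Klf11 (-0.73) and Klf12 (-0.46) were lower, 2 of them in both genotypes. Of 18 heat shock and cold-inducible genes Hspa1a (-2.22), Hspa1b (-2.14) and Cirbp (-0.68) were lower, 2 of them in both genotypes. These 3 of 18 are 16.7%, against 11.9% of all genes tested. The median of the 18 was 0.11 in IKKβ+/+ and -0.84 in IKKβ-/- mice. Hspa1a and Hspa1b are near-identical copies between which reads may be split. This count of 3 was 1 without mouse X2373, X2401, X2403 or X2409 and 6 without X2350.

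**Figure D4:**
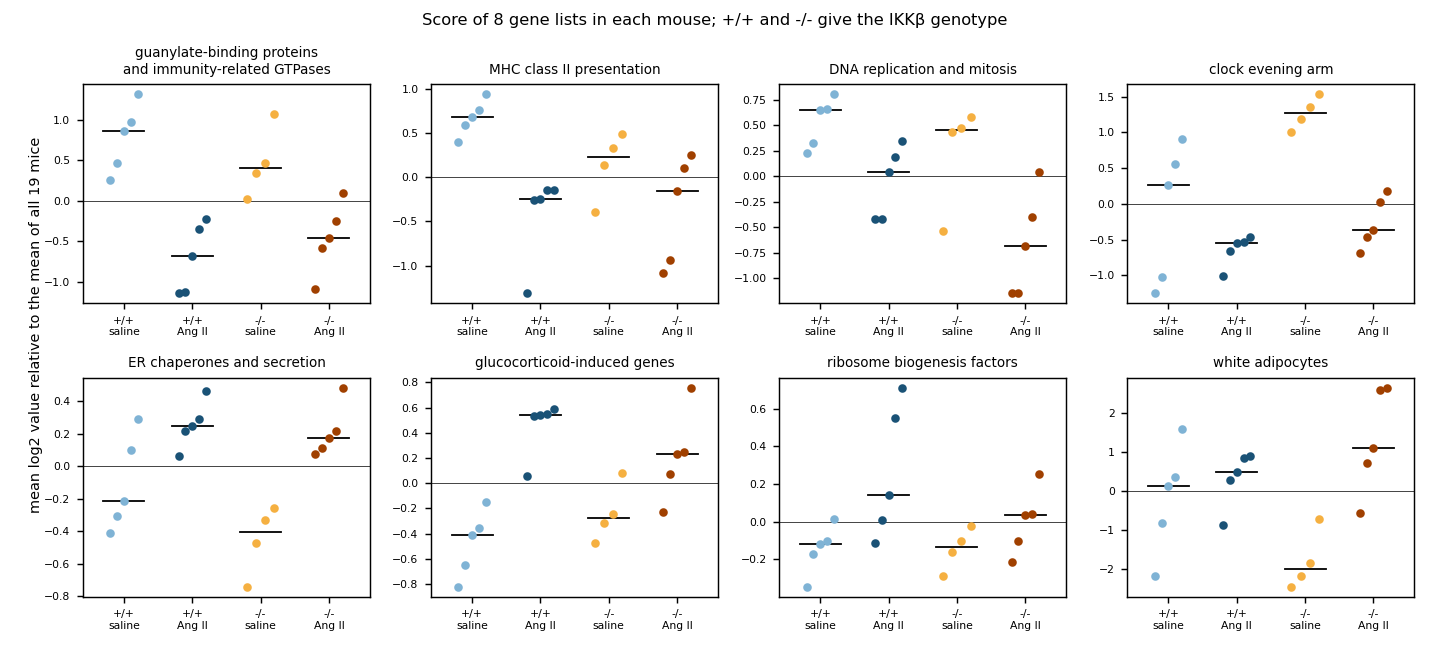
List scores, the average over the genes of a list of their log2 levels, each centred over all mice, are plotted for each of the 19 mice by group with a line at the median. Median scores of the interferon-induced GTPases are lower, and those of the ER chaperones higher, in treated than in saline-infused mice of each genotype, and the scores of the E-box driven clock genes spread widely in saline-infused IKKβ+/+ mice.

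Genes that set vascular tone fell more often than they rose. Of 31 tested ligands, receptors and synthases 10 were lower and 2 higher, all of them in both genotypes, with a median of -0.23, with -0.35 in IKKβ+/+ and -0.21 in IKKβ-/- mice. The falls included parts of several relaxing pathways. Calcrl, the receptor of the vasodilators CGRP and adrenomedullin, had 807, 900.3, 927, 1205 and 1691 normalized counts in saline-infused and 193, 306, 341, 539.7 and 565 in Ang II-treated IKKβ+/+ mice, and 849, 929.6, 986 and 1152 in saline-infused and 333, 562, 653, 700.1 and 787 in Ang II-treated IKKβ-/- mice. Treated mice were below all saline-infused mice (log2 fold change -1.17 ± 0.21 (SE), limma adjusted p = 0.00195). Its partners Ramp2 (-0.77) and Ramp1 (-0.48) were lower too.

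Of the nitric oxide pathway, the endothelial synthase Nos3 (log2 fold change -0.66 ± 0.21 (SE), limma adjusted p = 0.0498), both subunits of soluble guanylate cyclase, Gucy1a1 (-0.46) and Gucy1b1 (-0.36), and the cGMP-dependent kinase Prkg1 (-0.45) were lower. Ptgs1, cyclooxygenase 1, ranged from 435 to 686 normalized counts in saline-infused and from 219.7 to 422 in Ang II-treated IKKβ+/+ mice, and from 369 to 704 and 249 to 489 in the IKKβ-/- groups (log2 fold change -0.76 ± 0.17 (SE), limma adjusted p = 0.00763), and the prostaglandin E2 receptor Ptger4 was also lower (-0.67). Among the ligands endothelin 3 fell, and Edn3 had 21.5, 29.4, 35.9, 36.1 and 58 normalized counts in saline-infused and 1.99, 2.14, 3.82, 6.4 and 37.3 in Ang II-treated IKKβ+/+ mice, and 17.4, 23.2, 61.3 and 67.6 in saline-infused and 3.86, 6.47, 22.5, 28.5 and 34.1 in Ang II-treated IKKβ-/- mice. The groups overlapped in both genotypes, in IKKβ+/+ mice through 1 treated mouse at 37.3 and in IKKβ-/- mice through treated mice at 22.5, 28.5 and 34.1 (log2 fold change -1.87 ± 0.49 (SE), limma adjusted p = 0.021). The bradykinin receptors were the 2 rises of the list. Bdkrb1, which injury induces, had 4.66, 11.1, 12.3, 15.9 and 27.1 normalized counts in saline-infused and 17.1, 59.2, 69.6, 120.3 and 128 in Ang II-treated IKKβ+/+ mice, and 23.4, 25.4, 31.6 and 44.4 in saline-infused and 33.3, 38, 53.6, 92.5 and 101 in Ang II-treated IKKβ-/- mice. Treated values were higher with some overlap in both genotypes (log2 fold change 1.64 ± 0.38 (SE), limma adjusted p = 0.0108), and Bdkrb2 rose by 1.09 but lost its call under 16 of 32 alternatives. With a fold change above 1.5 as the threshold 6 of the 10 lower genes remained.

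Some endothelial markers were lower too. Of 14 markers Cldn5 (-1.02), Tek (-0.75) and Tie1 (-0.59) were lower and 11 did not pass the test, and the list's median was -0.54, with -0.74 in IKKβ+/+ and -0.22 in IKKβ-/- mice. Their summed level ranged from 24554 to 40302 in saline-infused and from 13739 to 26771 in treated IKKβ+/+ mice, and from 16104 to 33075 and from 8999.8 to 29985 in the IKKβ-/- groups. Their part in the falls of Nos3, Calcrl, Ramp2 and Klf2 was not tested. Of 31 angiogenic and Notch genes the ligands Dll1 (-1.28) and Jag1 (-0.40), the target Hey2 (-0.40) and Angpt2 (-0.57), Vegfd (-0.42) and Tek were lower, while Esm1 and the VEGF receptor Flt1 (0.33) were higher. The 2 higher genes and 5 of the 6 lower genes moved by more than 1.2-fold in both genotypes.

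Of 15 renin-angiotensin components and RGS genes 2 were lower and 2 higher. The 2 lower genes and 1 of the higher genes moved by more than 1.2-fold in both genotypes. Nr3c2, the mineralocorticoid receptor, which aldosterone activates, had 307, 347, 376, 459 and 471 normalized counts in saline-infused and 88.9, 118, 147, 222 and 254 in Ang II-treated IKKβ+/+ mice, and 339, 419, 419.8 and 427 in saline-infused and 146, 152, 272, 289 and 295 in Ang II-treated IKKβ-/- mice. It was lower in every treated mouse than in any saline-infused mouse (log2 fold change -1.10 ± 0.19 (SE), limma adjusted p = 0.00131). Agtr1b, the minor AT1 receptor gene of the mouse, was lower (log2 fold change -0.84 ± 0.27 (SE), limma adjusted p = 0.061) but not without mouse X2350, X2370 or X2403, whereas Agtr1a, the main AT1 receptor gene, did not pass the test (log2 fold change 0.48 ± 0.34 (SE), limma adjusted p = 0.424). Agt (2.13) and the angiotensin-degrading aminopeptidase Enpep (0.39) were higher but were not called with the white adipocyte score as a covariate. Rgs2 (log2 fold change 0.24 ± 0.21 (SE), limma adjusted p = 0.522) and Rgs5 (log2 fold change -0.39 ± 0.19 (SE), limma adjusted p = 0.205), which shorten Gq signals in smooth muscle, did not pass. Of 28 potassium and calcium channel genes Kcnj2, Kcnq5 (-0.60) and Kcnn4 (-0.59) were among the lower genes and Kcnk3 (0.97) and Kcnj8 (0.36) were higher, and 2 of the lower genes were called without mouse X2358, X2359, X2370, X2373 or X2376. All 4 lower channel genes and 1 of the higher ones moved by more than 1.2-fold in both genotypes.

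**Figure D5:**
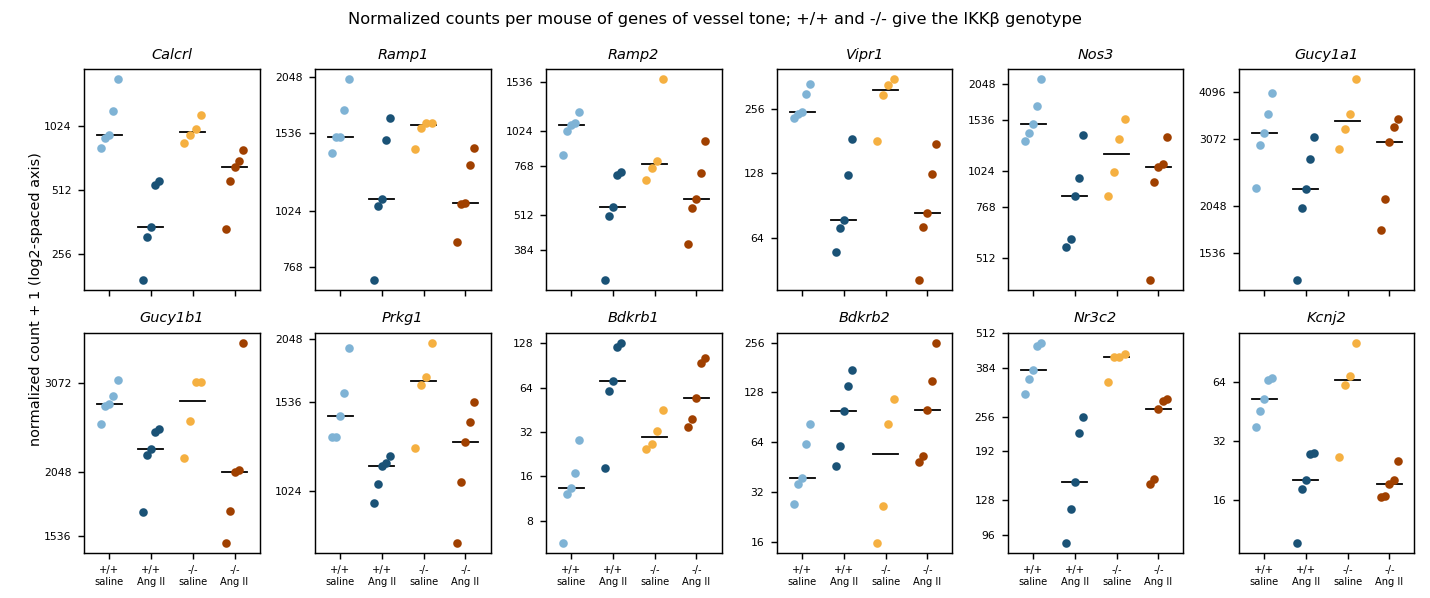
Normalized counts (log2-spaced axis, value + 1) of 12 genes of vessel tone are plotted by group with 1 point per mouse and a line at the median. Calcrl and Nr3c2 are lower in all treated than in all saline-infused mice, Vipr1 and Kcnj2 are separated within each genotype, and Nos3 and Bdkrb1 overlap between the treatments.

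In the extracellular matrix, some elastic fibre and collagen transcripts fell while several enzymes that modify collagen rose. Fbln5, which links elastic fibres to cells and has a role in their assembly, had 16168, 17162, 17531, 17963 and 19795 normalized counts in saline-infused and 6827, 7631, 8380.2, 8843 and 12676 in Ang II-treated IKKβ+/+ mice, and 13474, 15818, 17929 and 19441 in saline-infused and 8506, 9230.0, 9333, 9575 and 11144 in Ang II-treated IKKβ-/- mice. All treated mice were below all saline-infused mice (log2 fold change -0.92 ± 0.11 (SE), limma adjusted p = 6.09e-05). The difference between the genotypes was 0.23 (95% interval -0.21 to 0.68). Ltbp4 (-0.49), Ltbp3 (-0.47) and Mfap4 (-0.31) were lower as well. Of 30 genes of collagen processing and elastic fibres these 4 were lower and 7 higher, namely the prolyl hydroxylases P4ha1 (0.51) and P4ha3 (0.93), the lysyl hydroxylases Plod1 (0.32), Plod2 (0.36) and Plod3 (0.33) and the lysyl oxidases Loxl3 (0.38) and Loxl4 (0.82), with a median of 0.17. Of these, 3 lower and 6 higher genes moved by more than 1.2-fold in both genotypes. Of 26 collagen genes 7 were lower, all in both genotypes, among them Col1a2 (-0.44), Col3a1 (-0.52), Col6a6 (-1.51) and the basement membrane chains Col4a3 (-0.84), Col4a4 (-0.84), Col4a5 (-0.75) and Col4a6 (-0.86). The 2 higher ones, Col4a1 (0.39) and Col5a2 (0.28), were under 1.2-fold in 1 genotype, and the count of higher collagens ranged from 0 to 4 when single mice were left out.

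Metalloproteinases and their inhibitors moved both ways, with 8 of 28 tested genes higher, all in both genotypes, and 6 lower, 3 of them in both. Adam12, a metalloproteinase of remodelling tissue, had 11.1, 17.1, 27.1, 29.1 and 45.3 normalized counts in saline-infused and 84.5, 138, 211, 273 and 524 in Ang II-treated IKKβ+/+ mice, and 2.9, 6.32, 11.6 and 19.8 in saline-infused and 16.7, 39.8, 60.1, 61 and 109 in Ang II-treated IKKβ-/- mice. The groups overlapped slightly in IKKβ-/- mice (log2 fold change 2.76 ± 0.39 (SE), limma adjusted p = 0.000286). Timp1, an inhibitor of metalloproteinases, ranged from 296 to 358 normalized counts in saline-infused and from 419 to 2861 in Ang II-treated IKKβ+/+ mice, and from 207 to 406 and 300.0 to 883 in the IKKβ-/- groups (log2 fold change 1.38 ± 0.27 (SE), limma adjusted p = 0.00349). Mmp3, which cleaves proteoglycans, ranged from 1349 to 2454 normalized counts in saline-infused and from 2309 to 4462 in Ang II-treated IKKβ+/+ mice, and from 871 to 1345 and 1209 to 4608 in the IKKβ-/- groups (log2 fold change 1.17 ± 0.21 (SE), limma adjusted p = 0.00201).

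Adamts4 (1.82), Adamts9 (0.88), Timp4 (0.83), Mmp19 (0.58) and Mmp14 (0.32) were the other rises. Mmp12, the elastase of macrophages, was lower (log2 fold change -2.46 ± 0.66 (SE), limma adjusted p = 0.0241), together with Adamts8 (-0.75), Adamts2 (-0.33), Timp2 (-0.33), Adam10 (-0.32) and Adam15 (-0.27). Of 21 matricellular and injury proteins Prg4, the hyaluronan synthase Has1 (2.01), Cilp (1.18), Ccn3 (0.61) and Ccn5 (0.55) were among the higher genes and Thbs2 (-0.76) was lower, all in both genotypes, with a median of 0.46. Of 14 plasminogen and coagulation regulators the urokinase receptor Plaur (0.98), the annexin pair Anxa2 (0.64) and S100a10 (0.43) and Thbd (0.48) were higher and Serpine2 (-0.64) lower. Serpine2 and 3 of the 4 higher genes moved by more than 1.2-fold in both genotypes.

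A part of the cell cycle genes fell. Of 39 tested genes of DNA replication and mitosis 14 were lower, all in both genotypes. Another 1, Mcm7, was higher (0.41), stayed under 1.2-fold in 1 genotype and lost its call under 13 of 32 alternatives. The median was -0.58, with -0.46 in IKKβ+/+ and -0.85 in IKKβ-/- mice. Mki67, the proliferation marker Ki-67, had 133, 179, 191, 218 and 248 normalized counts in saline-infused and 48.3, 56.7, 61.1, 90.7 and 112 in Ang II-treated IKKβ+/+ mice, and 58.8, 119, 141 and 175 in saline-infused and 15.1, 19.3, 24.1, 42.3 and 59.1 in Ang II-treated IKKβ-/- mice. Treated IKKβ+/+ mice were all below the saline-infused mice, and in IKKβ-/- mice the ranges overlapped narrowly (log2 fold change -1.68 ± 0.25 (SE), limma adjusted p = 0.000518). Cenpf (log2 fold change -2.53 ± 0.46 (SE), limma adjusted p = 0.00195), a kinetochore protein, Ccnb1 (-1.80), Ccnb2 (-1.54), Ccna2 (-1.54), Cdk1 (-1.66), Top2a (-1.31) and Nusap1 (-1.68) were among the others. Of 19 cell cycle inhibitors and p53 targets Cdkn1a and Gadd45g (0.72) were higher in both genotypes. Btg2 (-1.04) was lower and stayed under 1.2-fold in 1 genotype. These 3 of 19 are 15.8%, against 11.9% of all genes tested.

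Genes of the IL-6 family, which includes interleukin 11 and oncostatin M, were among the rises. Of 13 tested members of the IL-6 family Il11, Osmr and Il6ra (0.47) were higher in both genotypes, with a list median of 0.35. Il11ra1 was lower (-0.33) and stayed under 1.2-fold in 1 genotype. Osmr, the oncostatin M receptor, ranged from 782 to 1376 normalized counts in saline-infused and from 1124 to 1511 in Ang II-treated IKKβ+/+ mice, and from 551 to 781 and 1056 to 1218 in the IKKβ-/- groups (log2 fold change 0.63 ± 0.10 (SE), limma adjusted p = 0.000782). Il11 had 2.64, 4.78, 8.54, 10.3 and 10.6 normalized counts in saline-infused and 12.8, 36.8, 60.3, 96.4 and 922 in Ang II-treated IKKβ+/+ mice, and 5.08, 10.6, 12.6 and 28.8 in saline-infused and 8.73, 9, 16.9, 37 and 64.2 in Ang II-treated IKKβ-/- mice. In treated IKKβ+/+ mice 1 animal reached 922, and the groups overlapped in IKKβ-/- mice (log2 fold change 2.10 ± 0.65 (SE), limma adjusted p = 0.049), with a difference between the genotypes of -2.64 (95% interval -5.11 to -0.17). Of 25 NF-κB targets, chemokines and adhesion molecules Nfkbia, the inhibitor IκBα (0.50), was higher and Tnfaip2 (-0.60), Vcam1 (-0.56) and Cx3cl1 (-0.36) lower, with a median of 0.11. Nfkbia stayed under 1.2-fold in 1 genotype, and 2 of the 3 lower genes moved in both genotypes. Of these lower genes 1 was called without mouse X2373, X2376 or X2401. The 4 called genes of the 25 are 16%, against 11.9% of all genes tested. Of 8 tested markers of neutrophils and inflammatory monocytes Chil3 (log2 fold change 2.77 ± 0.61 (SE), limma adjusted p = 0.00823) and Plac8 (1.12) were higher and the other 6 did not pass the test, and the summed level ranged from 162.6 to 513 and from 284 to 1010 in saline-infused and treated IKKβ+/+ mice and from 104 to 214 and from 156 to 1239 in the IKKβ-/- groups. Their part in these rises was not tested.

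Few contractile genes passed the test. Of 25 contractile genes of smooth muscle Itga8, an integrin chain, was lower (-0.52), with a median of 0.02, with 0.21 in IKKβ+/+ and -0.21 in IKKβ-/- mice. Acta2 (log2 fold change 0.13 ± 0.21 (SE), limma adjusted p = 0.752) and Myh11 (log2 fold change 0.01 ± 0.18 (SE), limma adjusted p = 0.987) did not pass the test. With the white adipocyte score as a covariate 6 contractile genes were called higher, and 5 were without mouse X2384 and 3 without X2409. Over 27 TGF-β ligands, receptors and inhibitory SMADs the median log2 fold change was -0.05. Ccn2, connective tissue growth factor, is a known target of Ang II and did not pass. Its changes had opposite signs, 1.06 in IKKβ+/+ and -1.05 in IKKβ-/- mice (limma adjusted p = 0.933 over both genotypes), and the difference between the genotypes was -2.12 (95% interval -3.36 to -0.87).

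Metabolic genes rose in part of the lists. Of 22 genes of the mevalonate pathway and cholesterol synthesis Hmgcs1 (0.63), Mvk (0.52), Msmo1 (0.74), Ebp (0.29) and Hsd17b7 (0.88) were higher, 2 of them in both genotypes, with a median of 0.48, with 0.87 in IKKβ+/+ and 0.02 in IKKβ-/- mice. The count was 3 without mouse X2372, X2373, X2378 or X2401, 8 without X2386 and 10 with DESeq2. Of 15 regulators and transporters of cholesterol the liver X receptor Nr1h3 (0.97) and Lpcat3 (0.43) were higher, 1 of them in both genotypes. This share of 13.3% is near the 11.9% of all genes tested. The list's median was -0.01 in IKKβ+/+ and 0.13 in IKKβ-/- mice. Of 20 glycolytic enzymes and transporters 6 were higher, 1 of them in both genotypes, among them Ldha (0.40), Pkm (0.27) and Eno1 (0.47), and 3 were called without mouse X2352, X2358, X2372, X2378 or X2401. Of 24 NADPH oxidase and antioxidant genes Srxn1 (0.34), Gpx1 (0.43), Txn1 (0.32) and G6pdx (0.31) were higher, each by less than 1.2-fold in 1 genotype, and 2 were called without mouse X2358 or X2372. Of 29 genes of fatty acid oxidation Acot1 (1.29), Pdk4, Acads (0.29) and Acadvl (0.28) were higher, 2 of them in both genotypes. This share of 13.8% is again near the 11.9% of all genes tested. With the adipocyte score as a covariate 1 of these 4 was left, and 2 were without mouse X2406.

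Markers of white adipocytes were among the rises. Of 12 tested markers 8 were higher, all of them in both genotypes, among them Cidec (3.17), Cfd (2.66), Adipoq (2.62) and Fabp4 (1.26), and the median was 1.96, with 0.44 in IKKβ+/+ and 3.95 in IKKβ-/- mice. edgeR called 3 and DESeq2 6 of the 12. The summed level ranged from 5691 to 30215 in saline-infused and from 8861 to 17952 in treated IKKβ+/+ mice, and from 6346 to 9496 and from 10590.3 to 64604 in the IKKβ-/- groups. With the score of this list as a covariate 1626 genes were called, of which 1124 were among the 1766. Without the 2 treated IKKβ-/- mice of the highest scores 1867 were called and 1463 were among them. Agt, Enpep and 3 of the 4 fatty acid oxidation genes were not called with this score as a covariate. Without the 2 mice of high mitochondrial share 1643 genes were called, 1417 of them among the 1766.

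Fewer markers of other cell types passed the test. Of 14 adventitial fibroblast markers Dpep1 was higher (0.79) and Lum (-1.01) and Cd34 (-0.53) lower. Dpep1 and 1 of the 2 lower markers moved by more than 1.2-fold in both genotypes. The brown adipocyte markers Kng2 (1.60) and Dio2 (0.80) and the skeletal muscle enzyme Ckm (2.06) were higher, and the Schwann cell marker S100b was lower (-0.57). The 6 marker lists of B cells, T and NK cells, neurons and chromaffin cells, adrenal cortex and kidney, mesothelium and red blood cells had no member called by limma among 18 tested, 1 with an unadjusted p under 0.05, and edgeR and DESeq2 each called 2.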

How the data were processed

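Bulk RNA-Seq of the suprarenal aorta of 19 mice was read from a single table of 20408 genes. The authors made stranded poly(A) libraries (KAPA RNA HyperPrep), used Trimmomatic 0.35 for trimming, STAR 2.7.1a for alignment to GRCm38 and counting on Gencode genes, and DESeq2 1.30.1 for normalization, and the submitters' processing notes also name RSEM. The deposited signal values are these normalized counts, reads divided by the size factor of each mouse. Values above 0 were checked where the read number was low, and all of these (100%) were whole multiples of the value of 1 read within 0.01 reads. Values of high read number were not checked in this way. Reads were recovered for count tests by rounding. Depth was 11382573 to 19906694 reads per mouse, which limits the precision of genes with few reads. Mice of 1 group carry separate numbers and were taken as separate animals. None of the 36 pairs within groups agreed within sampling noise.

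Genes that reached 10 normalized counts in 4 mice or more were tested (5563 left out), with a pseudocount of 1, in R 4.3.3 with limma 3.58.1 (lmFit, eBayes with a trend), two-sided, with Benjamini-Hochberg adjustment over the 14845 genes. The effect of Ang II was fitted with genotype as a covariate, and the effects within each genotype and their difference in a fit of 4 group means. The 33 process lists and 14 marker lists, the tests and the genes were chosen with earlier results of these data known. Named genes are the 12 largest common changes of each direction without overlap within a genotype and with a mean of at least 50 normalized counts in a group, up to 3 called members of each direction per list, and receptors, targets and contractile genes fixed by role. Further called members were named for their role or to complete a count after their values were seen, as were the motifs. Some genes that the rule names are not reported here. Alternatives were a pseudocount of 4, no filter, TMM scaling, edgeR 4.0.16 and DESeq2 1.42.0 on recovered reads, array weights, other covariates, other thresholds and each mouse left out. The 2 alternatives without mice of high mitochondrial share or high adipocyte score were added after seeing the data. The fits were tested on simulated data. Promoter sequences are those of RefSeq (GRCm38.p6).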

Additional observations from a re-analysis of the deposited data

Results flagged for a closer look

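In 7 of the 152 gene and group pairs examined, 1 mouse stood apart from the others of its group on the log2 scale by Dixon's criterion, which chance alone meets in about 1 in 20 groups. In saline-infused IKKβ+/+ mice, Lcn2 was 14.2 normalized counts in the highest mouse and 7.15 to 7.99 in the others, Masp1 was 6.66 in the lowest mouse and 22.2 to 34.2 in the others, and Unc5d was 98.7 in the highest mouse and 62.6 to 70.7 in the others. In saline-infused IKKβ-/- mice, Mt2 was 119 in the lowest mouse and 295 to 346 in the others, and Nr3c2 was 339 in the lowest mouse and 419 to 427 in the others. In Ang II-treated IKKβ+/+ mice, H2-Aa was 84.6 in the lowest mouse and 239 to 339.9 in the others, and Dbp was 134 in the lowest mouse and 288 to 393 in the others. The highest mouse for Lcn2 and for Unc5d was the same animal.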

How the results depend on the processing

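No paired analysis was possible because the groups share no mouse numbers. Against 770 higher and 996 lower genes, an adjusted p under 0.05 gave 494 higher genes, and a fold change above 1.5 gave 296 higher and 558 lower genes, of which 174 and 373 moved together in both genotypes, against 522 and 795. With each mouse left out, higher genes numbered 622 to 873, lower genes 807 to 1074, and those moving together 430 to 589 and 661 to 866. The difference between the genotypes, with no gene called by limma, gave 3 genes with edgeR, 279 with DESeq2, 76 with array weights, 3 without the 2 mice of high mitochondrial share, and 0 to 79 with each mouse left out (79 without mouse X2356, 19 without X2406, 1 without X2378 or X2409). The share of higher genes among the calls was 43.6%, and 48.5% with edgeR and 48.6% with DESeq2. Of the 274 called genes followed singly, 124 kept their call in all 32 alternatives and 232 in at least 22, and 18 kept it in fewer than 16, namely Car3, Col3a1, Col4a1, Col5a2, Cry2, Cx3cl1, Gucy1b1, Irf9, Lpcat3, Mmp19, Noc3l, Nr1d2, P4ha3, Pdia3, Pkm, Slc16a3, Spry4 and Trem2. With the white adipocyte score as a covariate, the log2 fold changes of 3 genes of that list reversed, to -0.016 for Retn, -0.077 for Fabp4 and -0.31 for Car3, since the score contains them. Rgs5 was called by DESeq2 alone (-0.42). Depth limits genes with few reads, such as Lcn2 and Derl3 in saline-infused mice.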
